A study of Mus musculus with 24 samples.

Results

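The expression of 8 genes of the phosphoinositide 3-kinase (PI3K), SHIP and AKT pathway was followed in mouse B cells with deletions in the genes for PU.1, SpiB or both, which are transcription factors of the Ets family. The genes were Pik3cd, Pik3cg, Pik3r1, Pik3r5, Pik3ap1, Inpp5d, Akt1 and Dapp1, taken by symbol from the tables of raw read counts, and these 8 were found among 27179 listed genes. RNA-seq had been performed on lymph node B cells sorted as CD3- B220+ CD138-, from C57BL/6 mice aged 6 to 20 weeks, as naive cells or after 48 h in CD40L + IL-4 culture or in LPS + IL-4 culture. Each of the 4 genotypes had 2 libraries at each of the 3 stages, 24 in all. Control mice were Cd23T/+, carrying a Cre transgene under Cd23 (Fcer2a) regulatory sequences that is active from the transitional B cell stage. PU.1 cKO mice were Spi1fl/fl Cd23T/+, with the floxed PU.1 gene deleted by that Cre. SpiB KO mice were Spi1fl/fl Cd23+/+ Spib-/-, with the floxed alleles but no Cre, so their comparison with control also compares the absence and presence of the transgene. PU.1 SpiB DKO mice, called the double knockout, were Spi1fl/fl Cd23T/+ Spib-/-. The study describes the floxed PU.1 exon as partly retained in naive cells of this genotype and as efficiently deleted in both cultures, so naive PU.1 SpiB DKO cells are a partial loss of PU.1. The methods call the libraries of a group biological replicates. The sources used here do not state whether these came from separate animals, and p-values then measure the spread between these libraries.

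Class I PI3K turns a lipid of the inner membrane into the docking lipid PIP3 when the B cell receptor or costimulatory receptors are engaged. PIP3 recruits AKT, BTK and adaptor proteins, and supports survival, growth and the exclusion of FOXO transcription factors from the nucleus. SHIP removes a phosphate from PIP3 and so limits the signal in B cells. Pik3cd encodes p110δ, the main catalytic subunit downstream of the B cell receptor, and Pik3cg encodes p110γ, the catalytic subunit downstream of G protein-coupled receptors. Pik3r1 encodes the regulatory subunits headed by p85α, which stabilise p110δ, and Pik3r5 encodes p101, a regulatory partner of p110γ. Pik3ap1 encodes BCAP, an adaptor that brings p85 to the membrane, Inpp5d encodes SHIP1, Akt1 a serine/threonine kinase held by PIP3, and Dapp1 the PIP3-binding adaptor Bam32.

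The 8 genes lie on 7 chromosomes of the mouse genome (GRCm38.p6), with Pik3cg and Akt1 both on chromosome 12 (chr12:32173397-32208677 and chr12:112653821-112674884, minus strand). Pik3ap1 spans chr19:41272541-41385102 on the minus strand, Inpp5d chr1:87620312-87720510 on the plus strand and Dapp1 chr3:137931007-137981549 on the minus strand. PU.1 and SpiB bind purine-rich sequences around a GGAA core, alone or beside an IRF site, so 3 motifs were searched on both strands of the RefSeq promoter windows (250 bases before to 50 after a transcript start). The GGAA core was in 12 of the 13 windows of the members, at least 1 for each gene, and in 96% of all 32851 windows. The longer PU box GAGGAAGT was in windows of Pik3cg and Inpp5d, and in 3.2% of all windows. The Ets-IRF composite GGAANNGAA, which contains the GGAA core, was in the window of Dapp1, and in 8.24% of all windows. Neither the PU box nor the composite was in a window of Pik3cd, Pik3r1, Pik3r5, Pik3ap1 or Akt1. The 3 matches of these longer motifs are shown in 30 bases on the gene's strand. The motif is in capitals, and was read on the opposite strand for Pik3cg and Dapp1.
Pik3cg, chr12:32208643-32208672, minus strand: gtaactgcaacACTTCCTCtgcatctggat
Inpp5d, chr1:87620281-87620310, plus strand: gtttctataatGAGGAAGTtctgtgcagct
Dapp1, chr3:137981543-137981572, minus strand: gcaaccaagtTTCACTTCCttgctagccag
The first motif base lay 20 bases before the start in Inpp5d and 13 bases before it in Dapp1. In Pik3cg it lay 2 bases before the upstream of its listed starts and 191 bases before the downstream start, and inside the gene span given above, which begins further upstream. A match is a description of the sequence only.

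The counts totalled 14231188 to 18194629 per naive library, 9598674 to 61640683 after CD40L + IL-4 and 22757630 to 73658850 after LPS + IL-4. The deepest CD40L + IL-4 library was PU.1 cKO replicate 2, where the median of that culture was 10070288. The CD40L + IL-4 libraries were deposited in a table separate from the other stages, so stage and table cannot be told apart in comparisons with CD40L + IL-4. Spi1, encoding PU.1, was at 34.3% of control in naive PU.1 cKO and at 64.7% in naive PU.1 SpiB DKO. After LPS + IL-4 the libraries labelled PU.1 SpiB DKO read 63.9 and 58.9 CPM (read counts scaled to library size, here by the TMM method within a stage) for Spi1, against 72 and 60.7 CPM in control, and the groups overlapped. PU.1 cKO, with the same floxed alleles and Cre, read 44.2 and 41.2 CPM after LPS + IL-4, 64.5% of control. Both values lay below those of the libraries labelled PU.1 SpiB DKO. After CD40L + IL-4 Spi1 was at 42.3% of control in PU.1 cKO and at 30.1% in PU.1 SpiB DKO. Whole-gene counts do not separate the floxed exon from the rest, so these values do not measure its deletion. Spib stood between 2.2% and 7.05% of control in every comparison of SpiB KO or PU.1 SpiB DKO with control. In naive cells 7 of 8 plasmacytoid dendritic cell markers were called higher in both SpiB KO and PU.1 SpiB DKO, with summed levels of 1721 to 2207 and 2339 to 2663 CPM against 235 to 375 CPM in control and 304 to 355 CPM in PU.1 cKO. The 10 T cell markers summed to 383 to 462 CPM in naive SpiB KO and 566 to 576 CPM in naive PU.1 SpiB DKO. Naive control stood at 73.2 to 117 CPM and naive PU.1 cKO at 116 to 119 CPM. Against control, 3 of the 8 tested were called higher for SpiB KO, 4 for the double knockout and 1 for PU.1 cKO. The highest single T cell marker was Cd8a for SpiB KO (231 CPM) and the double knockout (266 CPM). It was Lck for control (57.1 CPM) and PU.1 cKO (84.3 CPM). All 8 B cell markers were detected in every library, and their sum was 32413 to 37123 CPM in naive control and 22049 to 23426 CPM in naive PU.1 SpiB DKO, with Cd74 the highest of them. The CD3- gate of the sort would remove T cells, and counts do not show whether marker RNA came from other cells or from the sorted B cells. The part of this RNA in the results below was not tested, and in such bulk samples fewer cells of a type and less RNA per cell cannot be told apart.

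In naive B cells Pik3cd, Pik3cg, Pik3r5 and Pik3ap1 were lower in PU.1 cKO, Inpp5d was lower in SpiB KO, and Pik3cg, Pik3ap1, Inpp5d and Dapp1 were lower in PU.1 SpiB DKO. A gene was called changed when edgeR's quasi-likelihood test gave an adjusted p under 0.15, the fold was over 1.5 and the mean deposited log2 RPKM was above 0. By this rule 4 of the 8 members were lower in PU.1 cKO and 0 were higher, where 8.4% of the 12500 genes tested were called, and the member median was -0.67 on the log2 scale against -0.01 for all genes. In SpiB KO 1 member was lower and 0 were higher, where 6.35% of genes were called, with a member median of -0.29. In PU.1 SpiB DKO 4 members were lower and 0 were higher, where 14.1% of genes were called, with a member median of -0.62. The 3 comparisons share the same 2 control libraries, and control replicate 2 read above replicate 1 for 8 of 8 members in naive cells. Replicate 2 also read above replicate 1 in the other naive genotypes for every member except Pik3ap1 in PU.1 cKO. The counts moved with single libraries. In PU.1 SpiB DKO 2 were called without PU.1 SpiB DKO replicate 1 and 6 without control replicate 1. In PU.1 cKO 6 were called without control replicate 1 (3 to 5 without the other libraries). In SpiB KO 0 were called without SpiB KO replicate 1, SpiB KO replicate 2 or control replicate 2.

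After CD40L + IL-4 Pik3ap1 and Dapp1 were lower in PU.1 cKO, and these and Pik3cg and Inpp5d were lower in PU.1 SpiB DKO. In PU.1 cKO 2 members were lower and 0 were higher (9.36% of 12721 genes called), with a member median of -0.14. Without PU.1 cKO replicate 2 the count was 1. In SpiB KO 0 members were called by edgeR and 0 had an unadjusted p under 0.05, where 0.11% of genes were called, and DESeq2 and voom also called 0 members. In PU.1 SpiB DKO 4 members were lower and 0 were higher (13.7% of genes called), with a member median of -0.68 against 0.00 for all genes. In the same cultures 5 of 8 B cell markers were lower in PU.1 SpiB DKO (log2 median -0.77), and the plasma cell markers summed to 4191 to 4328 CPM against 1921 to 2293 CPM in control and 2866 to 3338 CPM in PU.1 cKO.

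After LPS + IL-4 Pik3ap1 was the member called, lower in PU.1 cKO and in the libraries labelled PU.1 SpiB DKO. In PU.1 cKO 1 member was lower and 0 were higher (6.67% of 12445 genes called). Without PU.1 cKO replicate 1, Pik3r5 also passed the rule, as higher than control (log2 0.70). In SpiB KO 0 members were called, with 1 at an unadjusted p under 0.05, where 2.29% of genes were called, and DESeq2 and voom also called 0. In the libraries labelled PU.1 SpiB DKO 1 member was lower and 0 were higher (13.6% of genes called), and the member median was 0.09. The plasma cell markers summed to 2557 to 2579 CPM in those libraries, 1821 to 2065 CPM in PU.1 cKO and 1128 to 1235 CPM in control. Of the 8 B cell markers, 2 were called higher and 0 lower in the libraries labelled PU.1 SpiB DKO than in control (log2 median -0.18).

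**Figure D1:**
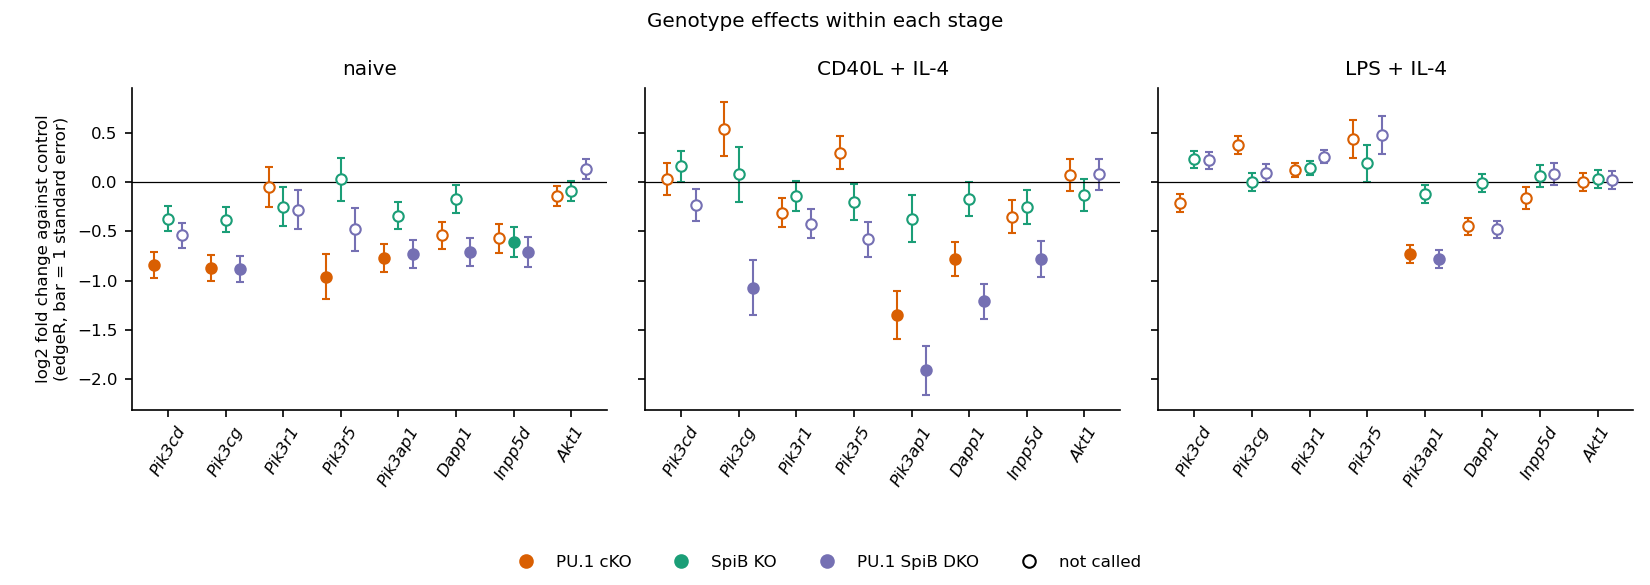
Log2 fold change against control (vertical axis, ± SE from edgeR) of each member in PU.1 cKO, SpiB KO and PU.1 SpiB DKO, with 1 panel per stage. Filled points passed the call rule, and the filled points all lie below 0, with Pik3ap1 in PU.1 SpiB DKO after CD40L + IL-4 the lowest at -1.91.

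Pik3cd, for the catalytic subunit p110δ, was lower in naive PU.1 cKO cells. It read 252 and 317 CPM in the naive control libraries, with PU.1 cKO at 151 and 166, SpiB KO at 216 and 225 and PU.1 SpiB DKO at 182 and 208 CPM. The 3 mutant groups all lay below control without overlap, and PU.1 cKO lay below PU.1 SpiB DKO. The difference from control was -0.84 ± 0.13 (log2, SE) in PU.1 cKO (edgeR, adjusted p = 0.00583), a 1.79-fold decrease. In PU.1 SpiB DKO the value was -0.54 ± 0.13 (edgeR, adjusted p = 0.0187), under the fold threshold, and in SpiB KO -0.37 ± 0.13 (edgeR, adjusted p = 0.154). After CD40L + IL-4 the 8 libraries spanned 286 to 420 CPM and no comparison with control was called, and after LPS + IL-4 they spanned 254 to 378 CPM. The LPS + IL-4 libraries labelled PU.1 SpiB DKO (378 and 346 CPM) lay above those of PU.1 cKO (282 and 254 CPM), by 0.43 ± 0.09 on the log2 scale (edgeR, adjusted p = 0.0125), below the fold threshold.

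Pik3cg, for the catalytic subunit p110γ, was lower in naive PU.1 cKO and the double knockout cells, and in PU.1 SpiB DKO after CD40L + IL-4. In naive cells it read 205 and 239 CPM in control, with PU.1 cKO at 117 and 125, SpiB KO at 163 and 179 and PU.1 SpiB DKO at 108 and 133 CPM. Control was highest and the groups with Spi1fl/fl and Cre, PU.1 cKO and the double knockout, were lowest, with SpiB KO between them. The log2 difference from control was -0.87 ± 0.13 in PU.1 cKO (edgeR, adjusted p = 0.00445) and -0.88 ± 0.13 in PU.1 SpiB DKO (adjusted p = 0.00152), while SpiB KO stood at -0.38 ± 0.13 (edgeR, adjusted p = 0.134), under the fold threshold. After CD40L + IL-4 it read 89.2 and 72.3 CPM in control, with PU.1 cKO at 145 and 90.4, SpiB KO at 105 and 66.2 and PU.1 SpiB DKO at 45.3 and 31.6 CPM. Here PU.1 cKO lay above control and PU.1 SpiB DKO below every other library. PU.1 SpiB DKO was 2.1-fold lower than control (log2 -1.07 ± 0.28, edgeR adjusted p = 0.0304), 3.05-fold lower than PU.1 cKO (-1.61 ± 0.28, adjusted p = 0.0164) and 2.23-fold lower than SpiB KO (-1.16 ± 0.28, adjusted p = 0.0266). PU.1 cKO against control gave 0.54 ± 0.27 (edgeR, adjusted p = 0.281). The call against control was lost without control replicate 1 (-0.91, edgeR adjusted p = 0.177) and without PU.1 SpiB DKO replicate 2 (-0.82, edgeR adjusted p = 0.193), and that against SpiB KO without SpiB KO replicate 1 (-0.78, edgeR adjusted p = 0.202) and PU.1 SpiB DKO replicate 2 (-0.92, edgeR adjusted p = 0.177). After LPS + IL-4 the range was narrow, from 58.9 to 81.4 CPM, with PU.1 cKO (80.9 and 81.4 CPM) the highest group, 0.38 ± 0.09 above control (59.7 and 65.3 CPM; edgeR, adjusted p = 0.0203) and under the fold threshold.

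Pik3r5, for the p110γ partner p101, was the least abundant member. In naive cells it read 14 and 21 CPM in control, with PU.1 cKO at 7.9 and 10.2, SpiB KO at 16.2 and 19.5 and PU.1 SpiB DKO at 12.3 and 12.8 CPM. PU.1 cKO lay below every other library and was called lower than control (log2 -0.96 ± 0.23, edgeR adjusted p = 0.0376), and that call was lost without PU.1 cKO replicate 1 (-0.78, edgeR adjusted p = 0.254) or without control replicate 2 (-0.63, edgeR adjusted p = 0.168). After CD40L + IL-4 it read 25.8 and 24 CPM in control, with PU.1 cKO at 31.2 and 30.3, SpiB KO at 22.4 and 21.1 and PU.1 SpiB DKO at 18.9 and 14.5 CPM, and no group overlapped with another. As with Pik3cg, PU.1 cKO was highest and PU.1 SpiB DKO lowest. PU.1 SpiB DKO was 1.84-fold lower than PU.1 cKO (-0.88 ± 0.18, edgeR adjusted p = 0.0338), a call lost without PU.1 cKO replicate 2 (-0.91, edgeR adjusted p = 0.162) or PU.1 SpiB DKO replicate 2 (-0.71, edgeR adjusted p = 0.244). Against control the value was -0.58 ± 0.18 (edgeR, adjusted p = 0.0581), just under the fold threshold, and DESeq2 (-0.59) and voom (-0.59) called it. After LPS + IL-4 Pik3r5 read 11.2 and 9.59 CPM in control, with PU.1 cKO at 11.4 and 16.7 and SpiB KO at 12.7 and 10.7. The libraries labelled PU.1 SpiB DKO read 14.6 and 14.2 CPM. They lay above control without overlap, by 0.48 ± 0.19 (edgeR, adjusted p = 0.0792), under the fold threshold. PU.1 cKO stood at 0.44 ± 0.19 (edgeR, adjusted p = 0.198).

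Pik3r1, for p85α, and Akt1 were called in 0 of the 15 genotype comparisons within stages. Pik3r1 read 89.5 and 136 CPM in naive control and between 81.5 and 116 CPM in the 6 naive libraries of the other genotypes, which all fell below the higher control library. After CD40L + IL-4 it read 99.2 and 105 CPM in control and 82 and 70.2 CPM in PU.1 SpiB DKO, -0.42 ± 0.15 (edgeR, adjusted p = 0.0925). After LPS + IL-4 it read 71 and 67.3 CPM in control and 83.1 and 82.9 CPM in the libraries labelled PU.1 SpiB DKO, 0.26 ± 0.07 (edgeR, adjusted p = 0.0226), so the groups did not overlap but lay within 1.2-fold. Akt1 spanned 121 to 148 CPM in naive cells, 243 to 322 CPM after CD40L + IL-4 and 317 to 360 CPM after LPS + IL-4. Its differences from control lay between -0.14 and 0.13 in all 9 comparisons with control.

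Pik3ap1, for the adaptor BCAP, was lower in PU.1 cKO and the double knockout at all 3 stages, and its fall after CD40L + IL-4 in PU.1 SpiB DKO was the largest of the 8 genes. In naive cells it read 291 and 331 CPM in control, with PU.1 cKO at 185 and 179, SpiB KO at 228 and 264 and PU.1 SpiB DKO at 165 and 209 CPM. After CD40L + IL-4 it read 260 and 150 CPM in control, with PU.1 cKO at 87.7 and 73.8, SpiB KO at 175 and 142 and PU.1 SpiB DKO at 59.8 and 49.7 CPM. After LPS + IL-4 it read 180 and 173 CPM in control, with PU.1 cKO at 113 and 99.3, SpiB KO at 160 and 165 and the libraries labelled PU.1 SpiB DKO at 98.4 and 108 CPM. At each stage the PU.1 cKO and the double knockout libraries lay below all control and SpiB KO libraries. The fall in PU.1 cKO was 1.71-fold in naive cells (-0.77 ± 0.14, edgeR adjusted p = 0.0107), 2.54-fold after CD40L + IL-4 (-1.35 ± 0.24, adjusted p = 0.00619) and 1.66-fold after LPS + IL-4 (-0.73 ± 0.09, adjusted p = 0.00074). In PU.1 SpiB DKO it was 1.66-fold (-0.73 ± 0.14, edgeR adjusted p = 0.00574), 3.75-fold (-1.91 ± 0.25, adjusted p = 0.000637) and 1.71-fold (-0.78 ± 0.09, adjusted p = 0.000235). The naive call in PU.1 SpiB DKO was lost without PU.1 SpiB DKO replicate 1 (-0.57, edgeR adjusted p = 0.0484), because the fold then came under its threshold. SpiB KO was not called at any stage, with values of -0.34 ± 0.14, -0.37 ± 0.24 and -0.12 ± 0.09. PU.1 SpiB DKO also lay below SpiB KO after CD40L + IL-4 (-1.53 ± 0.25, edgeR adjusted p = 0.00323) and after LPS + IL-4 (-0.66 ± 0.09, edgeR adjusted p = 0.0012).

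Dapp1, for the adaptor Bam32, likewise had its lowest levels in PU.1 cKO and the double knockout. In naive cells it read 71.2 and 76.9 CPM in control, with PU.1 cKO at 45.4 and 56.1, SpiB KO at 61.1 and 70.3 and PU.1 SpiB DKO at 43.1 and 47.6 CPM. Its fall in PU.1 SpiB DKO was 1.63-fold (-0.71 ± 0.14, edgeR adjusted p = 0.00765), while PU.1 cKO stood at -0.54 ± 0.14 (edgeR, adjusted p = 0.0501), under the fold threshold. After CD40L + IL-4 it read 76.9 and 90.8 CPM in control, with PU.1 cKO at 53.3 and 44.7, SpiB KO at 82 and 66.7 and PU.1 SpiB DKO at 38.2 and 34.3 CPM. These groups were again the lowest, and PU.1 SpiB DKO lay below PU.1 cKO. It was 2.31-fold lower than control in PU.1 SpiB DKO (-1.21 ± 0.18, edgeR adjusted p = 0.00118), 2.05-fold lower than SpiB KO (-1.04 ± 0.18, adjusted p = 0.00406), and 1.72-fold lower than control in PU.1 cKO (-0.78 ± 0.17, adjusted p = 0.0172). The PU.1 cKO call was lost without PU.1 cKO replicate 2 (-0.64, edgeR adjusted p = 0.205). After LPS + IL-4 control (64.9 and 56 CPM) lay above PU.1 cKO (45.4 and 43 CPM) and above the libraries labelled PU.1 SpiB DKO (43.4 and 43.4 CPM), by less than the fold threshold (-0.45 ± 0.09 and -0.48 ± 0.09, edgeR adjusted p = 0.013 and 0.00442).

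Inpp5d, for the phosphatase SHIP1, was the 1 member called in SpiB KO, in naive cells. In naive cells it read 338 and 403 CPM in control, with PU.1 cKO at 246 and 254, SpiB KO at 232 and 252 and PU.1 SpiB DKO at 191 and 261 CPM. All 3 mutant groups lay below control and overlapped with each other. The fall was 1.53-fold in SpiB KO (-0.61 ± 0.15, edgeR adjusted p = 0.0497) and 1.64-fold in PU.1 SpiB DKO (-0.71 ± 0.15, adjusted p = 0.0108), and PU.1 cKO stood at -0.57 ± 0.15 (edgeR, adjusted p = 0.0567), under the fold threshold. The SpiB KO call was lost without SpiB KO replicate 1 (-0.56, edgeR adjusted p = 0.312), SpiB KO replicate 2 (-0.67, edgeR adjusted p = 0.154) or control replicate 2 (-0.48, edgeR adjusted p = 0.232), and under voom (-0.57). The PU.1 SpiB DKO call was lost without PU.1 SpiB DKO replicate 1 (-0.50) or control replicate 2 (-0.58), when the fold came under its threshold. After CD40L + IL-4 it read 577 and 455 CPM in control, with PU.1 cKO at 445 and 367, SpiB KO at 468 and 398 and PU.1 SpiB DKO at 305 and 296 CPM, which lay below all other libraries and 1.71-fold below control (-0.78 ± 0.18, edgeR adjusted p = 0.0147). After LPS + IL-4 the 8 libraries spanned 294 to 390 CPM and overlapped between control and each mutant group.

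**Figure D2:**
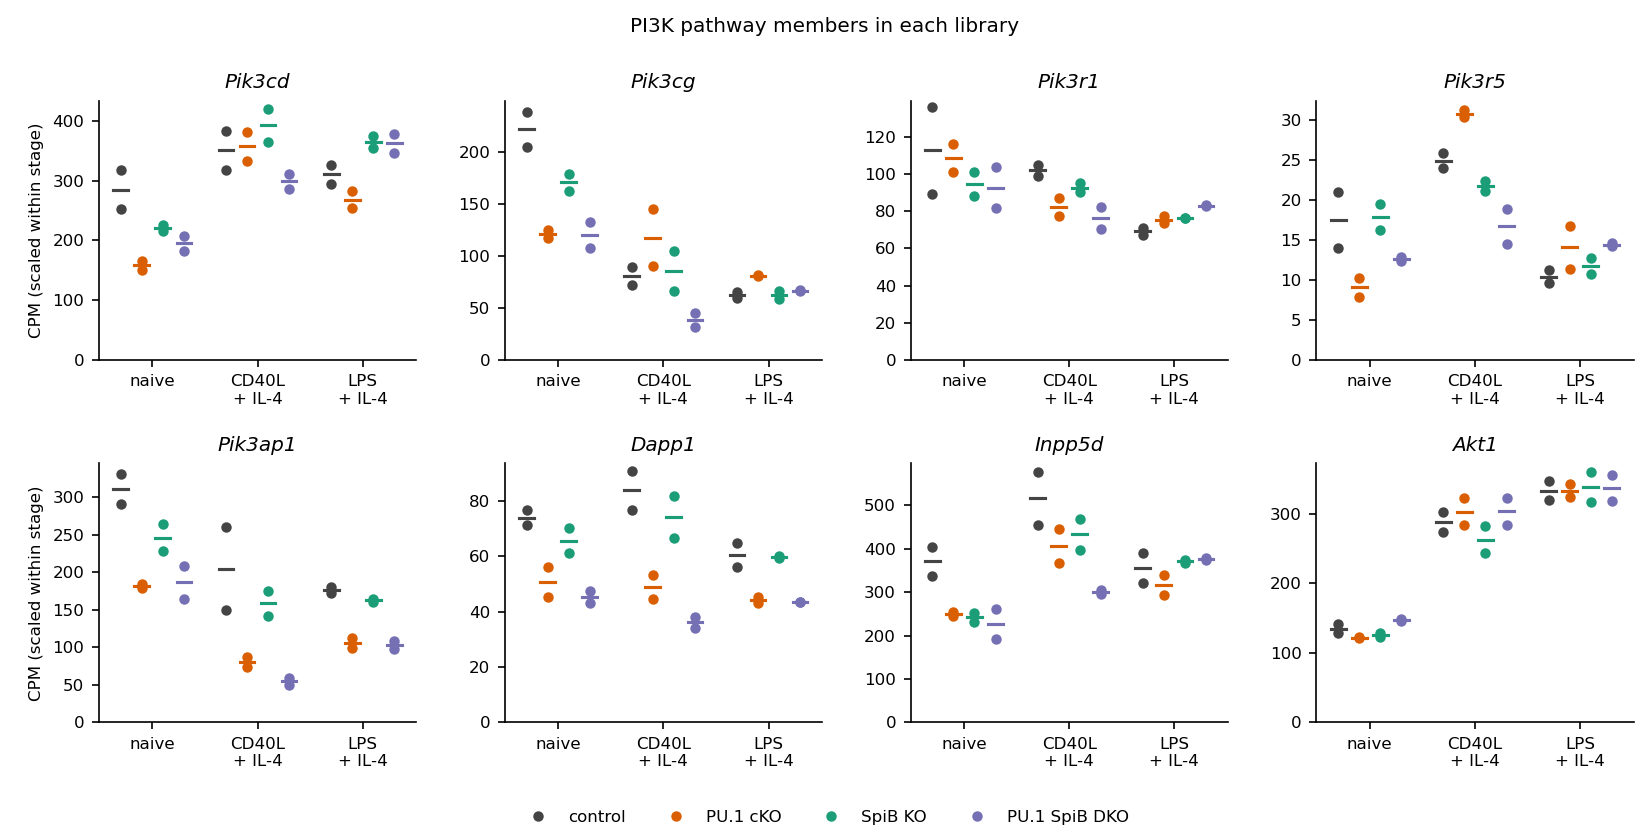
Level of each member in every library (CPM, linear axis from 0, 1 panel per gene), with points for the 2 libraries of each genotype at each stage and bars at their mean. Pik3ap1 and Dapp1 show PU.1 cKO and the double knockout under control at all 3 stages, and Pik3cg in PU.1 SpiB DKO lies under the other groups after CD40L + IL-4.

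Comparing the double knockout with each single knockout gave calls for 4 members, Pik3cg, Pik3r5, Pik3ap1 and Dapp1, all with lower levels in PU.1 SpiB DKO cells. Against PU.1 cKO, 0 members were called in naive cells (7.21% of genes called, with 2 members at an unadjusted p under 0.05), 2 were lower after CD40L + IL-4 (Pik3cg and Pik3r5, 3.01% of genes called) and 0 were called after LPS + IL-4 (8.1% of genes called, with 3 members at an unadjusted p under 0.05). Against SpiB KO, 0 members were called in naive cells (1.97% of genes called, with 4 members at an unadjusted p under 0.05), 3 were lower after CD40L + IL-4 (Pik3ap1, Pik3cg and Dapp1, 11.4% of genes called) and 1 was lower after LPS + IL-4 (Pik3ap1, 8.09% of genes called). DESeq2 and voom also called 0 in the 3 comparisons at 0. Without PU.1 SpiB DKO replicate 2, Pik3cg was called lower than in SpiB KO in naive cells as well (-0.67, edgeR adjusted p = 0.119).

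Whether the double knockout departed from the sum of the single losses was tested as their interaction on the log2 scale, called at an adjusted p under 0.15 alone. Control lacked the floxed alleles and SpiB KO lacked Cre, so any effects of these themselves do not cancel in this term. After CD40L + IL-4, Pik3cg in PU.1 SpiB DKO was lower than the sum of the single effects (log2 -1.69 ± 0.39, edgeR adjusted p = 0.134), 1 member of 8, where 1.17% of genes were called. That call was lost under voom (-1.61, limma adjusted p = 0.177) and without control replicate 1 (-1.87), control replicate 2 (-1.55), PU.1 cKO replicate 1 (-1.35), SpiB KO replicate 1 (-1.32) or PU.1 SpiB DKO replicate 2 (-1.48), its sign being the same in each. Pik3r5, the partner of p110γ, stood at -0.68 ± 0.25 (edgeR, adjusted p = 0.425). In naive cells the estimates lay between 0.01 and 0.67 for the 8 members, with a median of 0.37, and 0 were called by edgeR where 0.936% of genes were, with 2 at an unadjusted p under 0.05 (Pik3cd at 0.67 ± 0.19 and Akt1 at 0.36 ± 0.14). Spi1 itself had a naive interaction (0.93 ± 0.16, edgeR adjusted p = 0.0486), with more of it in PU.1 SpiB DKO than in PU.1 cKO. Its part in the members' values was not tested. DESeq2 called Pik3cd there (0.68, adjusted p = 0.0811) and voom called 0 members. Without control replicate 1 edgeR called Pik3cd (0.82, adjusted p = 0.0397). After LPS + IL-4 0 members were called by edgeR where 1.48% of genes were, with 1 at an unadjusted p under 0.05. Replicate numbers paired the libraries of that culture, and when that number entered the fit as a replicate block Pik3cg was called (-0.29 ± 0.10, edgeR adjusted p = 0.138). In naive cells the same block gave calls for Pik3cd (0.66 ± 0.11, edgeR adjusted p = 0.0207), Akt1 (0.36 ± 0.10, adjusted p = 0.0883), Pik3cg (0.36 ± 0.11, adjusted p = 0.101) and Inpp5d (0.45 ± 0.14, adjusted p = 0.111). Pairing by replicate number was not shown for naive libraries.

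**Figure D3:**
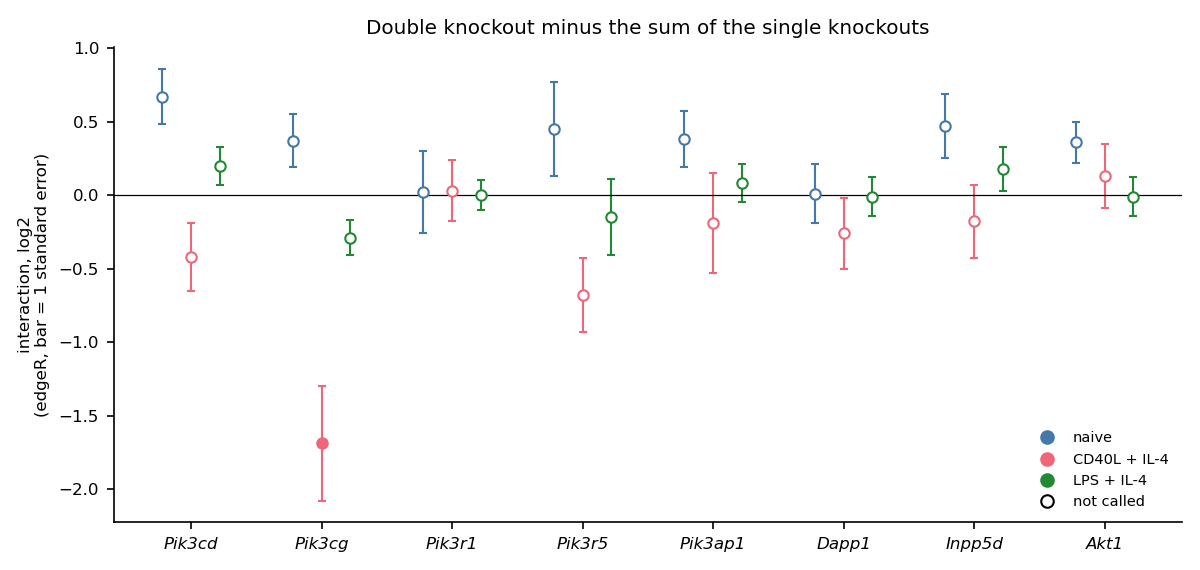
Interaction between PU.1 loss and SpiB loss (log2, PU.1 SpiB DKO minus the sum of the single effects, ± SE) for each member, by stage. The naive points lie at or above 0, and the filled point, Pik3cg after CD40L + IL-4 at -1.69, passed an adjusted p under 0.15.

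In control B cells Akt1 was higher and Pik3cg lower in both cultures than in naive cells. In the fit of all 24 libraries, 1 member was higher and 2 were lower after CD40L + IL-4 than in naive cells (35.4% of 13684 genes called), and 1 was higher and 4 were lower after LPS + IL-4 (47.5% of genes called). Akt1 rose from 139 and 147 CPM to 291 and 268 CPM after CD40L + IL-4 and to 306 and 343 CPM after LPS + IL-4, with CPM here normalized over all 24 libraries. These rises were 1.95-fold (0.97 ± 0.12, edgeR adjusted p = 1.42e-06) and 2.27-fold (1.18 ± 0.12, adjusted p = 4.28e-08). Pik3cg fell from 223 and 250 CPM to 86.1 and 70.7 CPM after CD40L + IL-4 and to 57.2 and 64.5 CPM after LPS + IL-4, 3.01-fold (-1.59 ± 0.22, edgeR adjusted p = 4.23e-06) and 3.88-fold (-1.96 ± 0.22, adjusted p = 1.33e-07). Neither gene's naive libraries overlapped with its cultured ones. Pik3ap1 fell 1.67-fold after CD40L + IL-4 (-0.74 ± 0.19, edgeR adjusted p = 0.00257), a call lost without control replicate 2 of that culture (-0.40), and 1.93-fold after LPS + IL-4 (-0.94 ± 0.19, adjusted p = 0.000169). Pik3r1 and Pik3r5 were lower after LPS + IL-4 than in naive cells, by 1.78-fold (-0.83 ± 0.15, edgeR adjusted p = 8.04e-05) and 1.85-fold (-0.89 ± 0.20, adjusted p = 0.000622), and the Pik3r1 call was lost without naive control replicate 2 (-0.53). Pik3r5 was also 2.41-fold lower after LPS + IL-4 than after CD40L + IL-4 (-1.27 ± 0.20, edgeR adjusted p = 4.35e-05), the 1 member called between the cultures, where 30.9% of genes were called. Between the cultures 3 members were called without control replicate 1 of CD40L + IL-4 or of LPS + IL-4, and 2 without control replicate 2 of CD40L + IL-4. Pik3cd, Inpp5d and Dapp1 were called in 0 of the 3 comparisons, with Pik3cd between -0.17 and 0.17. The others had differences under the fold threshold. From CD40L + IL-4 to LPS + IL-4 Inpp5d stood at -0.54 ± 0.15 (edgeR, adjusted p = 0.00713) and Dapp1 at -0.47 ± 0.14 (adjusted p = 0.00813). Against naive cells Dapp1 stood at -0.42 ± 0.14 after LPS + IL-4 (edgeR, adjusted p = 0.00961). Inpp5d stood at 0.34 ± 0.15 after CD40L + IL-4 (edgeR, adjusted p = 0.0642).

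Levels between genes were compared per length, on the deposited log2 RPKM scale, in the control libraries. In naive control the order was Pik3ap1 at 6.92 ± 0.15 (SD, n = 2), Inpp5d at 6.25 ± 0.18, Pik3cd at 5.74 ± 0.25, Akt1 at 5.69 ± 0.06, Pik3cg at 5.02 ± 0.15, Dapp1 at 4.67 ± 0.03, Pik3r1 at 3.97 ± 0.38 and Pik3r5 at 2.12 ± 0.33. The libraries of neighbours overlapped only for Pik3cd and Akt1. After CD40L + IL-4 Akt1 led at 6.72 ± 0.06, followed by Inpp5d (6.68 ± 0.21), Pik3ap1 (6.21 ± 0.53) and Pik3cd (5.98 ± 0.15), each overlapping with the next, and Pik3cg at 3.43 ± 0.17 stood under Pik3r1 at 3.71 ± 0.12. After LPS + IL-4 Akt1 was highest at 6.92 ± 0.06, Inpp5d (6.13 ± 0.25) overlapped with Pik3ap1 (6.05 ± 0.07), and Pik3r1 (3.23 ± 0.06) with Pik3cg (3.17 ± 0.09), above Pik3r5 at 1.32 ± 0.09. The LPS + IL-4 values were normalized separately by the authors, so levels of a gene were not compared across stages on this scale.

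**Figure D4:**
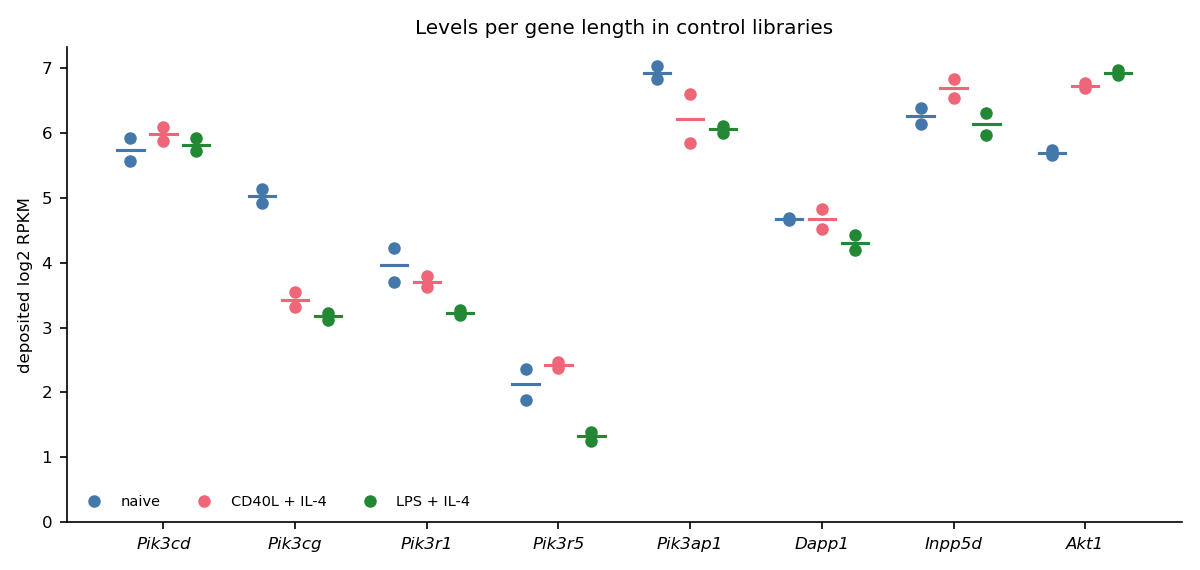
Deposited log2 RPKM of each member in the 2 control libraries of each stage. Bars mark the mean of the 2 libraries. By mean, Pik3ap1 is the highest in naive cells and Akt1 in both cultures, and Pik3r5 is the lowest at every stage.

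Over the 12 group means of genotype and stage, the expressed genes most like each member, by Pearson's r among 9706 genes, were Arhgef2 (0.958) for Pik3cd, Trim59 (0.948) for Pik3cg, Sh3pxd2a (0.980) for Pik3r1, Apaf1 (0.946) for Pik3r5, Sh3tc1 (0.980) for Pik3ap1, Tnrc6c (0.961) for Inpp5d, Gsg2 (0.995) for Akt1 and Bcl11a (0.986) for Dapp1. Among the members themselves, Pik3ap1 and Dapp1 had an r of 0.816, Pik3cd and Inpp5d of 0.823, and Akt1 and Pik3cg of -0.825. The 12 points share stages and libraries, and these values are descriptions with no test.

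A wider list of 77 further genes of the pathway placed the members among their neighbours. In PU.1 SpiB DKO 4 were higher and 9 lower of 74 tested in naive cells (17.6%), 4 higher and 23 lower of 75 after CD40L + IL-4 (36%), and 15 higher and 6 lower of 75 in the LPS + IL-4 libraries labelled PU.1 SpiB DKO (28%), where 14.1%, 13.7% and 13.6% of all genes were called. The medians were -0.17, -0.36 and 0.18 on the log2 scale, against 0.00, 0.00 and 0.01 for all genes. Loss of SpiB alone gave 2 higher and 5 lower in naive cells, 0 after CD40L + IL-4, and 3 higher and 1 lower after LPS + IL-4, where 6.35%, 0.11% and 2.29% of all genes were called. Loss of PU.1 alone gave 1 and 3 (5.41% of the list), 5 and 9, and 6 and 6, where 8.4%, 9.36% and 6.67% of all genes were called. The list was chosen with earlier results of these data known, and it overlaps in part with the B cell markers.

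The genes named from this list follow with their log2 difference (± SE) between PU.1 SpiB DKO and control, and each value described as higher or lower passed the call rule. Upstream of PIP3, the other class I catalytic genes Pik3ca and Pik3cb were called in 0 of the 3 comparisons of PU.1 SpiB DKO with control. Pik3r2, for p85β, was lower after CD40L + IL-4 (-0.62 ± 0.18, edgeR adjusted p = 0.0413). Bank1, a B cell adaptor that binds PI3K and SRC-family kinases, was lower in naive cells (-0.73 ± 0.18) and after CD40L + IL-4 (-0.85 ± 0.21), and read 130 to 166 CPM against 238 to 294 CPM in that culture. Irs2, the insulin and IL-4 receptor adaptor, was lower in naive cells (-0.85 ± 0.21) and higher after LPS + IL-4 (2.35 ± 0.21), at 25.8 to 27.9 CPM against 4.54 to 6.14 CPM in control. Pik3c2b, a class II PI3K, was lower after CD40L + IL-4 (-1.68 ± 0.20), as was Pik3r4 (-0.76 ± 0.19), which regulates the class III enzyme.

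Around SHIP1, Fcgr2b, the inhibitory IgG receptor that recruits it, was lower after CD40L + IL-4 (-1.64 ± 0.25, edgeR adjusted p = 0.00165) and LPS + IL-4 (-1.05 ± 0.11, adjusted p = 0.000141), at 12.1 to 21.3 CPM against 44.1 to 60.2 CPM in the former. Dok2, an adaptor that inhibits RAS signalling, was higher after LPS + IL-4 (1.83 ± 0.26), from a low level, at 6.9 to 7.3 CPM against 1.51 to 2.64 CPM in control. The lipid phosphatases of the next step down, Inpp4b and Inpp4a, were lower after CD40L + IL-4 (-2.53 ± 0.40 and -1.34 ± 0.40), although the control libraries for Inpp4b read 10.9 and 24.9 CPM and the PU.1 SpiB DKO libraries for Inpp4a read 3.05 to 7.55 CPM.

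Downstream, Btk, the PIP3-binding kinase of the B cell receptor, was lower in PU.1 SpiB DKO at all 3 stages (-0.73 ± 0.15, -1.30 ± 0.17 and -0.67 ± 0.11, edgeR adjusted p = 0.00956, 0.000547 and 0.00207). Its level after CD40L + IL-4 was 65.3 to 73 CPM against 169 to 172 CPM in control, with PU.1 cKO between them at 102 to 113 CPM. The related kinase Tec was lower in naive cells (-0.77 ± 0.13) and after CD40L + IL-4 (-1.43 ± 0.22). Sgk1, an AKT-related kinase, was higher after CD40L + IL-4 (2.37 ± 0.26), at 26.8 to 38.5 CPM against 5.7 to 6.92 CPM.

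Among AKT targets, Foxo1, a transcription factor that AKT keeps out of the nucleus, was higher after CD40L + IL-4 (0.66 ± 0.17, edgeR adjusted p = 0.0293) and LPS + IL-4 (1.31 ± 0.09, adjusted p = 1.53e-05), at 318 to 332 CPM against 121 to 141 CPM in the latter, and Bad, a pro-apoptotic BCL2 relative, was higher in naive cells (0.89 ± 0.16). Of 10 genes known to be activated by FOXO factors, set beside the all-gene shares given above, 2 were higher and 1 lower in naive cells, 2 higher and 4 lower after CD40L + IL-4, and 5 higher and 1 lower after LPS + IL-4. Trib1, a pseudokinase, was higher at all 3 stages (1.07 ± 0.31, 2.37 ± 0.22 and 2.21 ± 0.16), and its naive control libraries read 10.8 and 25.8 CPM. In control cells 7 of the 10 genes were lower after CD40L + IL-4 than in naive cells and 8 of 10 after LPS + IL-4, with 0 higher in either, where 16.9% and 21.9% of all genes were lower.

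**Figure D5:**
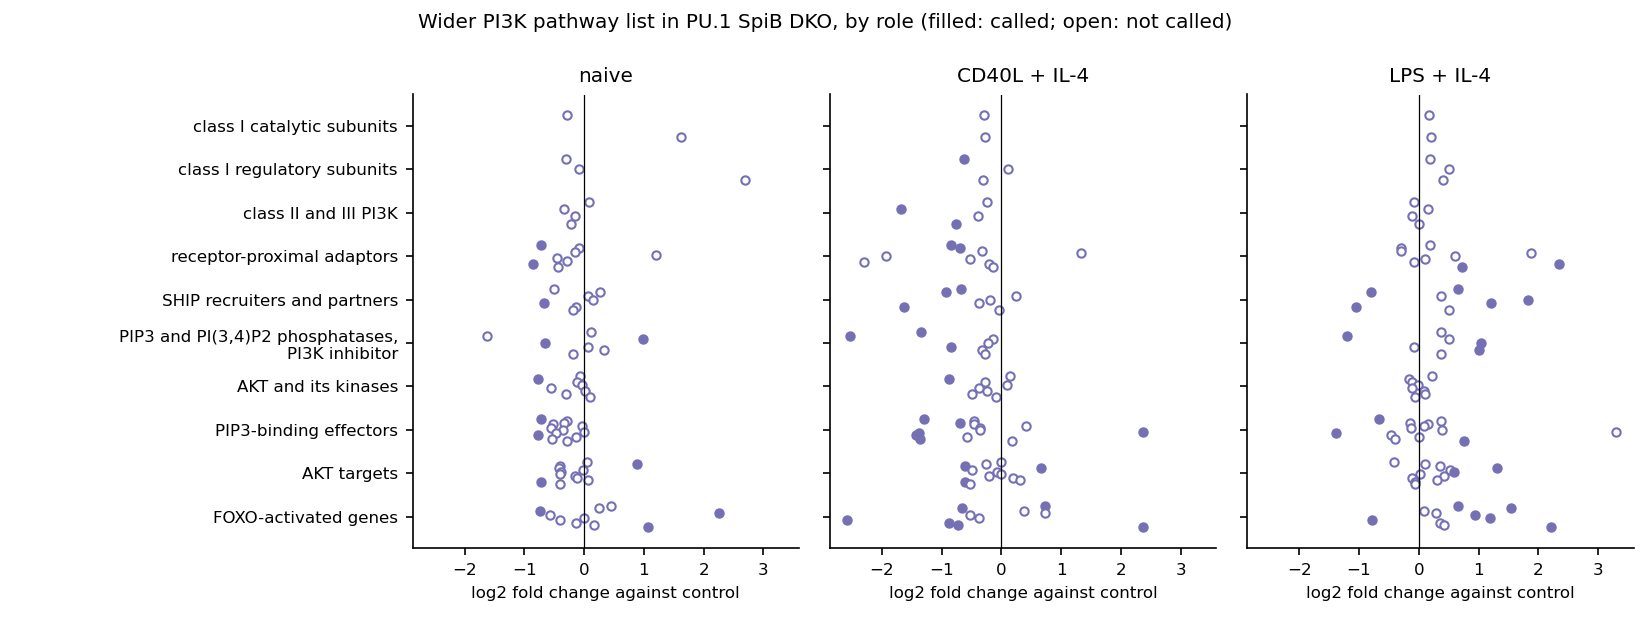
Log2 fold change in PU.1 SpiB DKO against control of the wider pathway genes, grouped by role, with 1 panel per stage and 1 point per gene; filled points passed the call rule. After CD40L + IL-4, 23 of 27 called genes lie below 0, and after LPS + IL-4, 15 of 21 lie above 0.

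The effects of genotype on the members were then compared between stages in the fit of all 24 libraries, called at an adjusted p under 0.15. The effect of losing PU.1 differed between CD40L + IL-4 and naive cells for 3 members (9.05% of genes called), between LPS + IL-4 and naive cells for 3 (6.34%) and between the cultures for 0 (3.09%, with 1 member at an unadjusted p under 0.05). The 3 members were Pik3cd, Pik3cg and Pik3r5 in each, called lower in naive PU.1 cKO and at -0.21 to 0.54 against control in the cultures. The effect of losing SpiB differed for 0 members between CD40L + IL-4 and naive cells (2.15%, with 1 member at an unadjusted p under 0.05, and 1 called by DESeq2), for 2 between LPS + IL-4 and naive cells (5.65%) and for 0 between the cultures (0% of genes called by edgeR, 3.08% at an unadjusted p under 0.05, and 3 genes by DESeq2). The effect of the double knockout differed for 2 members between CD40L + IL-4 and naive cells (16.8%), for 5 between LPS + IL-4 and naive cells (29.6%) and for 6 between the cultures (28.6%). The signed log2 effect was higher in LPS + IL-4 in each of these 6, which can mean a smaller fall. Without single libraries the SpiB KO count of 2 moved to between 0 and 3, the double knockout count of 2 to 1, and its count of 5 to between 2 and 5. The libraries are named with the values in the closing section. The stages also differ in depth, and CD40L + IL-4 differs from the others in its table. Spi1 in the LPS + IL-4 libraries labelled PU.1 SpiB DKO overlapped with control, while Spib was at 5.55% of control in them and the study describes the floxed exon as deleted there.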

How the data were processed

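RNA-seq was analysed in 24 libraries of sorted lymph node B cells, 2 for each of 4 genotypes at 3 stages. According to the methods and the submitters' processing notes, the authors aligned reads with Subread to GRCm38 (mm10) and counted uniquely mapped reads on RefSeq exons with featureCounts, without strand. The deposited raw counts, listed per gene in 2 tables, were the input of every test. The deposited log2 RPKM values, made by the authors with quantile normalization, separately for LPS + IL-4, served for the expression threshold and for levels between genes. The 517 entries with a gene number but no symbol held 0.162% of counts, stayed in the library totals and could not be members.

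The 8 libraries of a stage were fitted with edgeR 4.0.16 (quasi-likelihood test, TMM) in R 4.3.3, after a filter of 0.5 CPM in at least 2 libraries. Adjusted p-values are Benjamini-Hochberg over all genes tested, and tests are two-sided. Control stages and differences between stages used the 24 libraries together. An exact permutation test of 2 against 2 libraries cannot go below p = 0.333 and was not used. On simulated counts of PU.1 SpiB DKO against control, 91.5%, 89% and 99.5% of 200 genes changed by 1 on the log2 scale were recovered in naive, CD40L + IL-4 and LPS + IL-4 libraries (12271, 12463 and 12265 genes), with 34, 24 and 11 false calls. The changed genes were drawn from those above a set mean level. Smaller changes, such as those called for members in naive cells, were not simulated. Libraries of a group differed by more than sampling noise, so none was treated as a duplicate deposit. After LPS + IL-4, libraries that shared a replicate number deviated together from their genotype means (r of 0.386 to 0.514 over the 6 genotype pairs). This was taken as pairing. Unless a replicate block is named, the values, p-values and calls given for that culture come from the fit without it and leave the pairing out. No gene in the count tables overlaps a member in the annotation used.

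Alternatives were DESeq2 1.42.0, voom with quantile normalization (limma 3.58.1), RLE size factors, no filter, other sets of libraries, a replicate block, other thresholds and leaving out each library. Leaving out libraries for differences between stages was added after the data were seen. The members, pathway and marker lists were chosen with earlier results of these data known. The genes named were all members and, of the wider list, those called in 1 direction at all 3 stages and up to 2 per role with the largest called change. Some genes that this rule names are not reported here. Like genes are those with the highest Pearson's r over group means. Marker lists held 8 B cell, 10 T cell, 6 NK cell, 10 myeloid, 8 plasmacytoid dendritic cell and 8 plasma cell genes. NK cell markers summed to at most 242 CPM and myeloid markers to at most 64.7 CPM in any library, both in naive PU.1 SpiB DKO. Promoter windows came from RefSeq on GRCm38.p6 and matched 8 of 8 members.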

Additional observations from a re-analysis of the deposited data

Results flagged for a closer look

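The effect of a genotype differed between stages for the following members, by the test of the difference itself in the fit of 24 libraries (edgeR, adjusted p under 0.15 over all genes). Values are the log2 effect at the first-named stage minus that at the second, ± SE. Higher and lower refer to the signed effect, so a higher effect can be a smaller fall. Pik3ap1 in PU.1 SpiB DKO, for example, stood at -0.78 against control after LPS + IL-4 and at -1.91 after CD40L + IL-4.

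The effect of losing PU.1 was higher after CD40L + IL-4 than in naive cells for Pik3cd (0.88 ± 0.18, edgeR adjusted p = 0.0085), Pik3cg (1.43 ± 0.30, adjusted p = 0.00937) and Pik3r5 (1.27 ± 0.29, adjusted p = 0.0148). It was also higher after LPS + IL-4 than in naive cells for Pik3cd (0.60 ± 0.18, edgeR adjusted p = 0.0886), Pik3cg (1.22 ± 0.30, adjusted p = 0.0339) and Pik3r5 (1.36 ± 0.29, adjusted p = 0.0136). The Pik3cd call after LPS + IL-4 was lost without naive PU.1 cKO replicate 1 (0.54), naive control replicate 2 (0.46), LPS + IL-4 control replicate 1 (0.61) or 2 (0.49), or LPS + IL-4 PU.1 cKO replicate 1 (0.46) or 2 (0.63).

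The effect of losing SpiB was higher after LPS + IL-4 than in naive cells for Inpp5d (0.67 ± 0.22, edgeR adjusted p = 0.125) and Pik3cd (0.59 ± 0.18, adjusted p = 0.111). Both calls were lost without naive SpiB KO replicate 1 (0.62 and 0.56), naive SpiB KO replicate 2 (0.73 and 0.62), naive control replicate 2 (0.57 and 0.45), LPS + IL-4 SpiB KO replicate 1 (0.65 and 0.52) or 2 (0.63 and 0.60), or LPS + IL-4 control replicate 2 (0.52 and 0.50). Without naive control replicate 1, Pik3r1 was called too (0.63). In naive cells SpiB KO libraries also held more plasmacytoid dendritic cell marker RNA (1721 to 2207 CPM) than after LPS + IL-4 (61.5 to 64.4 CPM). These sums were scaled within each stage. The part of this RNA in the result was not tested.

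The effect of the double knockout was lower after CD40L + IL-4 than in naive cells for Pik3ap1 (-1.16 ± 0.27, edgeR adjusted p = 0.00809) and Dapp1 (-0.49 ± 0.20, adjusted p = 0.143). The Dapp1 call was lost without CD40L + IL-4 control replicate 2 (-0.35), naive control replicate 1 (-0.46) or 2 (-0.51), CD40L + IL-4 PU.1 SpiB DKO replicate 1 (-0.56) or 2 (-0.41), or naive PU.1 SpiB DKO replicate 2 (-0.40).

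Between LPS + IL-4 and naive cells the effect of the double knockout was higher in the libraries labelled PU.1 SpiB DKO for Inpp5d (0.73 ± 0.22, edgeR adjusted p = 0.026), Pik3cd (0.70 ± 0.18, adjusted p = 0.0124), Pik3r1 (0.47 ± 0.21, adjusted p = 0.141), Pik3cg (0.91 ± 0.30, adjusted p = 0.0418) and Pik3r5 (0.89 ± 0.28, adjusted p = 0.0364). Without LPS + IL-4 control replicate 2 the calls of Inpp5d (0.58), Pik3r5 (0.76) and Pik3r1 (0.42) were lost, leaving 2 members. Without naive control replicate 2 those of Pik3r5 (0.60) and Pik3r1 (0.18) were lost, and without naive PU.1 SpiB DKO replicate 1 those of Pik3cg (0.76) and Pik3r1 (0.30). The Pik3r1 call was also lost without LPS + IL-4 control replicate 1 (0.46) or LPS + IL-4 PU.1 SpiB DKO replicate 1 (0.45) or 2 (0.44).

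Between the cultures the effect of the double knockout was higher after LPS + IL-4 for Inpp5d (0.78 ± 0.22, edgeR adjusted p = 0.0212), Pik3r1 (0.61 ± 0.22, adjusted p = 0.0646), Dapp1 (0.65 ± 0.20, adjusted p = 0.0305), Pik3cg (1.08 ± 0.30, adjusted p = 0.0223), Pik3ap1 (1.05 ± 0.27, adjusted p = 0.0138) and Pik3r5 (0.98 ± 0.28, adjusted p = 0.0264). The Pik3r1 call was lost without CD40L + IL-4 PU.1 SpiB DKO replicate 2 (0.50) or LPS + IL-4 control replicate 2 (0.59). Spi1 differed between the same PU.1 SpiB DKO libraries, at 31.7 and 25.1 CPM after CD40L + IL-4 and 58.8 and 54.8 CPM after LPS + IL-4. CPM here was normalized over all 24 libraries. The part of Spi1 in the result was not tested.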

How the results depend on the processing

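Of 33 counts of called members, 229 of 255 recomputed values, leave-one-out aside, were within 1.5 times the reported count. With no fold threshold the count rose to 2 in naive SpiB KO, 1 and 2 in the naive double knockout against PU.1 cKO and SpiB KO, 3 in PU.1 cKO and 5 in PU.1 SpiB DKO after LPS + IL-4 against control, 3 and 2 there in the double knockout against PU.1 cKO and SpiB KO, 6 for CD40L + IL-4 against naive control and 5 for LPS + IL-4 against CD40L + IL-4 control. Voom gave 0 in naive SpiB KO, 0 for the interaction after CD40L + IL-4, 3 between the control cultures, and 1 for the double knockout between CD40L + IL-4 and naive. DESeq2 gave 1 for the naive interaction, 2 between the control cultures and 1 for SpiB loss between CD40L + IL-4 and naive, and RLE size factors gave 2 between the control cultures. No filter gave 1 for the naive interaction, 1 for PU.1 loss between the cultures and 1 for the double knockout between CD40L + IL-4 and naive, and the 24 libraries together gave 1 for the naive interaction. An adjusted p under 0.05 gave 0 for the interaction after CD40L + IL-4, 0 for SpiB loss between LPS + IL-4 and naive, and 1 for the double knockout between CD40L + IL-4 and naive. The cause of these changes was not tested, except that a looser or stricter threshold changes the count by construction.

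Leaving out 1 library at a time gave counts of 0 to 1 in naive SpiB KO, 2 to 6 in naive PU.1 SpiB DKO, 0 to 1 for naive PU.1 SpiB DKO against SpiB KO and for the naive interaction, 1 to 2 in PU.1 cKO and in the double knockout against PU.1 cKO after CD40L + IL-4, 0 to 1 for the interaction there, 1 to 2 in PU.1 cKO after LPS + IL-4 and 1 to 3 between the control cultures. For differences between stages it gave 0 to 1 for PU.1 loss between the cultures, 0 to 1 and 0 to 3 for SpiB loss between CD40L + IL-4 or LPS + IL-4 and naive, and 1 to 2 and 2 to 5 for the double knockout. A lone library left in a group was taken to vary like the other groups. Of 660 such values of single members, 2 changed sign: Pik3ap1 in SpiB KO after CD40L + IL-4 (0.08 without control replicate 1, and down to -0.71 without control replicate 2) and Pik3r1 in CD40L + IL-4 against naive control (0.03 without naive control replicate 2, and down to -0.51 without naive control replicate 1).

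With the replicate block, 4 members had a naive interaction (Akt1, Inpp5d, Pik3cd and Pik3cg) and 1 after LPS + IL-4 (Pik3cg, -0.29, edgeR adjusted p = 0.138), and other counts stayed within 1.5 times. Correlations between libraries of the same number were 0.0918 to 0.25 in naive cells (5 of 6 over 0.1) and -0.0702 to 0.266 after CD40L + IL-4 (4 of 6), so pairing was not shown there. The lowest count of a member in a library was 124 reads, and depth was not matched between libraries.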
